A study of Mus musculus with 26 samples.

Results

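The comparison described here sets 2 libraries from mice whose cocaine intake escalated against 3 libraries from mice that gave themselves saline. They were chosen by their titles and are 5 of the 26 libraries of the series. All 5 were made from the dorsal striatum of adult Drd2-TRAP mice of line CP101, a stock of FVB/N-Swiss Webster origin crossed for at least 9 generations to C57BL/6. Every group, saline included, carries this transgene, in which regulatory sequence of the D2 dopamine receptor gene drives the ribosomal protein Rpl10a fused to EGFP. Antibodies to EGFP pull down the tagged ribosomes, and the messenger RNA on them is sequenced. The escalating mice took cocaine intravenously in long-access sessions and raised their intake, and the saline mice could take saline in its place. Another 4 libraries came from nonescalating mice, which took cocaine without that rise. None of these 9 libraries came after withdrawal. The remaining 17 libraries are 14 purified ones made after withdrawal and 3 of unpurified input. The sources used here give neither doses nor the number of sessions. They also do not say whether a library is 1 animal or a pool, so each p-value speaks of the variation among these libraries only.

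D2 receptor neurons form the indirect pathway, the striatal output that tends to restrain movement and reward seeking. Dopamine acting on D2 receptors lowers cyclic AMP in these cells, while adenosine and glutamate drive cyclic AMP and MAP kinase signalling, which switch on immediate early genes such as Egr1, Arc and Npas4. MAP kinase phosphatases such as Dusp1 then turn the kinases off. The circadian clock is a loop in which Clock or Npas2 with Arntl (also called Bmal1) turns on the Per and Cry genes, whose products block that activation. Per genes also respond to cyclic AMP and glucocorticoids. Drd2 is active in cholinergic interneurons of the striatum too, so some tagged ribosomes can come from them.

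Values are CPM, gene reads scaled to library size with TMM factors. The fold changes are log2, escalating minus saline, with the SE of an edgeR quasi-likelihood fit of all 23 purified libraries. The deposited gene counts were 19122303 and 17373355 for the escalating libraries and 11449936, 8666909 and 10801527 for the saline libraries, so the escalating libraries were the deepest of the 5. Uniquely aligned reads outside genes took 32.8% and 34.1% in escalating libraries and 27.0% to 47.4% in saline libraries. Across 10807 genes averaging at least 5 CPM, 26.4% differed by over 2-fold between the escalating libraries, against 12.5% to 26.6% between pairs of saline libraries. In bulk libraries, fewer cells of a type and less RNA per cell cannot be told apart.

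No gene passed an adjusted p of 0.05 among 16912 tested with edgeR (0%). The lowest adjusted p was 0.144, for Preb and the predicted gene Gm7854, and every other gene named below had an adjusted p of 1. At an unadjusted p under 0.05 there were 518 genes (3.06%), and DESeq2 called 6 (0.0355%). With 2 libraries on one side, the groups were therefore described by separation, which means that both escalating libraries lie above, or both below, all 3 saline libraries. This held for 1362 genes with escalating higher (8.05%) and 1205 with escalating lower (7.13%). Leaving out 1 library makes separation easier, and the counts then ran from 1906 to 4723 higher and from 1858 to 4108 lower. The same 10 arrangements of 2 against 3 libraries give an exact two-sided permutation p of 0.2 at best. In each direction 1 of these 10 arrangements separates a gene without ties. Random labels would thus separate about 1 gene in 10 per direction, and both shares, 8.05% and 7.13%, are below that. The 3.06% at an unadjusted p under 0.05 is likewise no more than that threshold allows by chance.

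The upstream sequence of some genes described below is shown because the routes named above act on promoters: cyclic AMP through the element TGACGTCA and the clock through the E-box CACGTG or its variant CACGTT. Shown are the 250 bases before the start site, from RefSeq on GRCm38.p6, for Dusp1 and for the clock genes Hlf, Bhlhe41 and Arntl, which separated the groups with an unadjusted p under 0.05. Per2 met this too, but it had no entry among the promoters used here. Both strands were searched for these motifs and for TGACG, the core of the cyclic AMP element, which lies within it. Matches are in capitals.
Dusp1, chr17:26508473-26508722, minus strand: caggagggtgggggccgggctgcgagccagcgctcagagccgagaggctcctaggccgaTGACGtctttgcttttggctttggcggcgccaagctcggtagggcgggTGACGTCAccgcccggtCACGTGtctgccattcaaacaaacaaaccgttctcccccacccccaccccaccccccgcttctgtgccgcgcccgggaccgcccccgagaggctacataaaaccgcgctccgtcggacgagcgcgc
Hlf, chr11:90390918-90391167, minus strand: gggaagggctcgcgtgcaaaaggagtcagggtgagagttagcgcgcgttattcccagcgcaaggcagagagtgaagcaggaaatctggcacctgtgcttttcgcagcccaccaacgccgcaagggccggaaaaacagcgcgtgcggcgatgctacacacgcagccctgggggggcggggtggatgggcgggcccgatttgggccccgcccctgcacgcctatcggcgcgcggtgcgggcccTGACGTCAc
Bhlhe41, chr6:145865421-145865670, minus strand: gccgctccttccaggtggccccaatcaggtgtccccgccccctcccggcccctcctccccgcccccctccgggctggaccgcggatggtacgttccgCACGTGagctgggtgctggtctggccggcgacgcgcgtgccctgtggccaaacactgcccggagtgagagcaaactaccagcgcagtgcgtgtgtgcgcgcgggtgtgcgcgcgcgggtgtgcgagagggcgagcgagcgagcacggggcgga
Arntl, chr7:113207215-113207464, plus strand: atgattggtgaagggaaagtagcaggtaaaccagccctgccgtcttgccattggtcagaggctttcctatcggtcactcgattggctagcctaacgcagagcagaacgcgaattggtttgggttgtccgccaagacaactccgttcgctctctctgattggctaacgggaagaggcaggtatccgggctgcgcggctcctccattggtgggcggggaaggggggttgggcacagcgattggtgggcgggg

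The Dusp1 promoter held TGACGTCA with its first base at -143 from the start site, a TGACG outside it at -191 and a CACGTG at -126. Hlf held TGACGTCA at -9, and Bhlhe41 held CACGTG at -153. The Arntl window held none of the 4 motifs, which says only that these letters are not in it. Arntl has 2 promoter entries, and the other one is not reported here. Of all 32851 promoters of the table, 1.55% held TGACGTCA, 17.8% TGACG, 6.02% CACGTG and 3.85% CACGTT. By gene, counting any promoter of a gene, TGACG was present in 22 of 35 immediate early genes with an entry (62.9%), 13 of 31 cascade genes (41.9%), 6 of 16 phosphatase and feedback genes (37.5%), 7 of 20 clock genes (35%) and 19.8% of all 27025 genes. CACGTG was present in 5 of 20 clock genes (25%), 6 of 35 immediate early genes (17.1%), 2 of 16 phosphatase and feedback genes (12.5%), 3 of 31 cascade genes (9.68%) and 6.86% of all genes. These shares cover whole lists and not the separated members. The share of all genes includes genes that were not tested here, and none was counted over the tested genes alone. A match is a description of the letters and not a binding site.

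Per2, which encodes a repressor of the clock and lies on chromosome 1 (91415982 to 91459324, minus strand), was at 206 and 174.5 CPM in escalating libraries and at 65.0, 63.3 and 84.2 CPM in saline libraries. Both escalating libraries were above every saline library and close to each other. The log2 fold change was 1.43 ± 0.45. The nonescalating libraries ran from 54.0 to 131 CPM, so Per2 was also above all 4 of them, and above all 21 other purified libraries of the series. The share of all genes that lie outside these 21 libraries was not counted. Such a position, here and for genes below, is therefore a description only.

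Dusp1, a phosphatase that inactivates MAP kinases, was at 239 and 101 CPM in escalating libraries and at 62.3, 89.9 and 73.9 CPM in saline libraries. The groups did not overlap, but escalating replicate 2 lay just above the highest saline library, and the log2 fold change was 1.17 ± 0.42. It was 0.42 without escalating replicate 1 and 1.67 without replicate 2. The nonescalating libraries were at 59.6 to 91.6 CPM. Egr1, an early transcription factor of chromosome 18 that follows neuronal activity, was at 2542 and 1003 CPM in escalating libraries and at 850, 1069 and 958 CPM in saline libraries. Escalating replicate 1 stood far above all saline libraries, while replicate 2 lay within their range (0.89 ± 0.61). The Egr1 fold change was 0.066 without replicate 1 and 1.41 without replicate 2. Egr1 therefore did not meet the separation criterion, and the nonescalating range of 550 to 1378 CPM held replicate 2 as well.

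**Figure D1:**
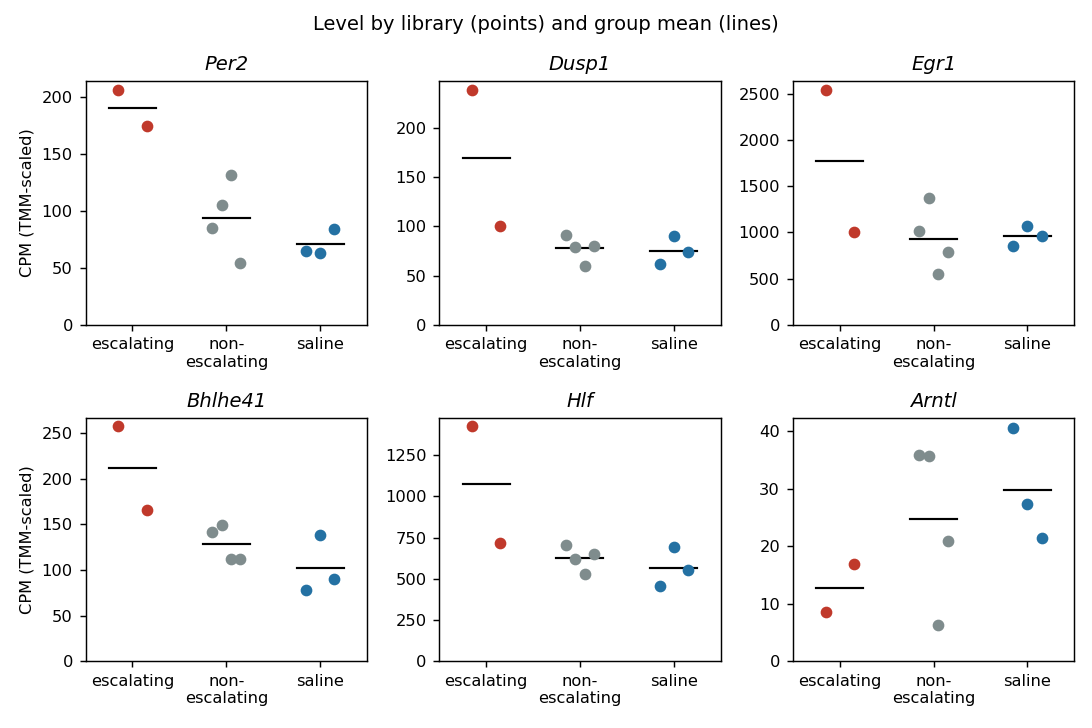
Level of 6 genes in CPM on linear axes that start at 0, for 2 escalating, 4 nonescalating and 3 saline libraries; points are libraries and lines are group means. Both escalating libraries lie above all others for Per2, Dusp1, Bhlhe41 and Hlf, only replicate 1 does so for Egr1, and Arntl is below saline.

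Clock genes had a positive median in each escalating library. Of 24 tested, 17 had a positive fold change (70.8%, against 48% of all genes and 54.4% of those averaging at least 5 CPM). Separated higher were 5 and lower 1 (20.8% and 4.17%). These shares were 8.05% and 7.13% among all genes, and 9.37% and 5.67% among those averaging at least 5 CPM. The median log2 fold change was 0.31, against -0.02 over all genes tested. An unadjusted p under 0.05 was met by 6 of the 24 members, against 3.06% of all genes tested. The list median was 0.27 in escalating replicate 1 and 0.36 in replicate 2, each set against the saline mean.

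Among the repressors, Per1 was at 428 and 211 CPM in escalating libraries and at 109, 224 and 141 CPM in saline libraries. Replicate 2 fell short of the highest saline library, so the groups overlapped (1.01 ± 0.46). Cry1, the partner of the Per proteins, was at 17.2 and 49.4 CPM in escalating libraries and at 11.4, 21.3 and 13.02 CPM in saline libraries (1.13 ± 0.48). Here replicate 2 was the high library, and replicate 1 lay inside the saline range. Their relatives Per3 (115 and 137 CPM in escalating, 88.0 to 125 CPM in saline) and Cry2 (209 and 279 CPM in escalating, 163 to 254 CPM in saline) overlapped, with log2 fold changes of 0.26 ± 0.59 and 0.24 ± 0.43. Per3 overlaps Camta1 on the same strand, so some of its reads may be lost or misplaced.

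Bhlhe41, which encodes a repressor that acts on E-boxes, was at 258 and 165 CPM in escalating libraries and at 78.2, 138 and 90.1 CPM in saline libraries. Both escalating libraries were above all saline and all nonescalating ones, which ran from 112 to 149 CPM (1.05 ± 0.49). Hlf, a PAR bZip factor in the output of the clock, was at 1428 and 717 CPM in escalating libraries and at 457, 694 and 555 CPM in saline libraries. The margin of replicate 2 over the highest saline library was small, and the log2 fold change was 0.92 ± 0.43. Its relative Tef was at 321 and 311 CPM in escalating libraries and at 227, 254 and 241 CPM in saline libraries, separated and even (0.39 ± 0.40). Csnk1d, a kinase that marks Per proteins for degradation, was at 198.5 and 194 CPM in escalating libraries and at 145, 166 and 164 CPM in saline libraries, also separated (0.31 ± 0.41).

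The activator Arntl ran the other way. It was at 8.54 and 16.9 CPM in escalating libraries and at 40.6, 27.3 and 21.5 CPM in saline libraries, both escalating values below all saline values (-1.22 ± 0.58). The nonescalating libraries, at 6.29 to 35.9 CPM, spanned nearly the whole range of both groups. Its partners Clock (164 and 122 CPM in escalating, 120 to 182 CPM in saline) and Npas2 (247 and 141 CPM in escalating, 165 to 197 CPM in saline) overlapped. So did Nr1d1, a repressor of Arntl (47.5 and 79.6 CPM in escalating, 50.6 to 75.6 CPM in saline), its relative Nr1d2 (67.3 and 104 CPM in escalating, 45.3 to 82.1 CPM in saline) and the output factor Dbp (10.03 and 19.1 CPM in escalating, 11.2 to 12.2 CPM in saline). The fold changes of Clock, Npas2 and Nr1d1 were near 0, at -0.07 ± 0.29, 0.14 ± 0.60 and -0.06 ± 0.34, and their signs depended on single libraries, as given under the processing settings.

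**Figure D2:**
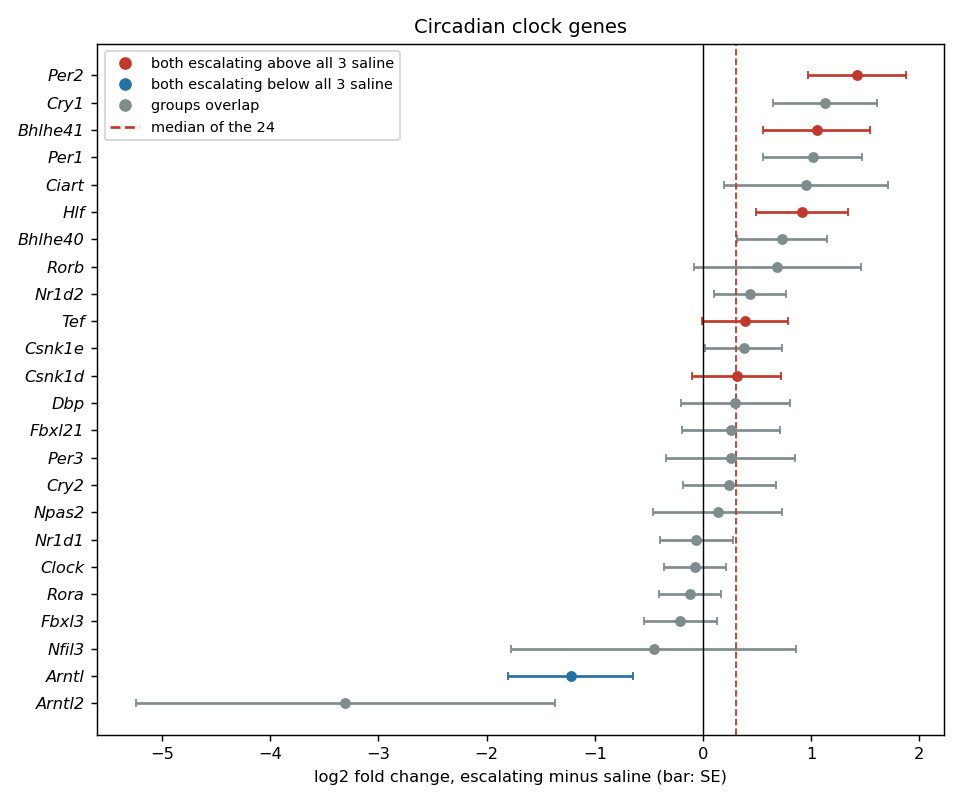
Log2 fold change, escalating minus saline, of the 24 clock genes on a linear axis; points are edgeR estimates, bars 1 SE, and the dashed line the median of 0.31. Per2, Bhlhe41, Hlf, Tef and Csnk1d are separated higher and Arntl is separated lower, while Arntl2, at under 7 CPM in each of the 5 libraries, has the widest bar.

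The time of day of collection is not given in the labels, and its part in these values was not tested.

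Immediate early genes as a list had a share of positive fold changes near that of genes averaging at least 5 CPM. Of 44 tested, 26 had a positive fold change (59.1%, against 48% of all genes and 54.4% of those averaging at least 5 CPM), with a median log2 fold change of 0.21. Separated higher were 6 and lower 1 (13.6% and 2.27%, against 8.05% and 7.13% of all genes). The list median was 0.44 in replicate 1 and 0.15 in replicate 2. Arc, whose product sits at synapses and drives receptor uptake, was at 162 and 51.6 CPM in escalating libraries and at 43.7, 46.3 and 40.9 CPM in saline libraries. Replicate 2 exceeded the saline libraries by little, and the log2 fold change was 1.29 ± 0.90. Npas4, an activity-dependent transcription factor, was at 23.1 and 13.5 CPM in escalating libraries and at 2.19, 5.26 and 8.98 CPM in saline libraries (1.74 ± 1.23). Rgs2, which shortens G-protein signals, was at 331 and 238 CPM in escalating libraries and at 125, 165 and 153 CPM in saline libraries (0.94 ± 0.59), above all 7 other libraries without withdrawal. Separation from all 7 was met by 404 genes in the higher direction (2.39%) and by 242 in the lower (1.43%).

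The other separated members of that list were at lower levels. Tiparp, an ADP-ribosyltransferase, was at 11.5 and 15.6 CPM in escalating libraries and at 3.12, 10.03 and 5.03 CPM in saline libraries, and Arl4d, a small GTPase, at 12.5 and 9.21 CPM against 5.74, 6.64 and 4.49 CPM. Fbxo33 was at 21.6 and 16.6 CPM in escalating libraries and at 7.68, 16.2 and 14.1 CPM in saline libraries. The kinase gene Pim1 was the only member separated lower, at 0 and 0.58 CPM in escalating libraries and 0.75 to 2.96 CPM in saline libraries. Nptx2, a secreted pentraxin that gathers glutamate receptors, overlapped by a narrow margin, at 6.34 and 16.5 CPM in escalating libraries and 2.11, 6.39 and 3.59 CPM in saline libraries.

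The early genes Fos, Junb, Nr4a1 and Egr3 overlapped between the groups, unlike Arc and Npas4. Fos was at 10.8 and 1.75 CPM in escalating libraries and at 0.08, 2.51 and 1.26 CPM in saline libraries, Junb at 18.0 and 21.6 CPM against 11.5, 18.1 and 9.52 CPM. Junb missed separation because escalating replicate 1 and saline replicate 3 were nearly level. Nr4a1 was at 144 and 56.3 CPM in escalating libraries and at 53.2, 71.3 and 41.2 CPM in saline libraries, again with only replicate 1 high. Egr3 was at 516 and 302 CPM in escalating libraries and at 225, 436 and 413 CPM in saline libraries, with a log2 fold change of 0.19 ± 0.58 that was -0.25 without escalating replicate 1.

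Phosphatases and feedback inhibitors of the MAP kinase route mostly had positive fold changes, none of them called. Of 17 tested, 14 were positive (82.4%, against 48% of all genes and 54.4% of those averaging at least 5 CPM). Separated higher were 6 and lower none (35.3% and 0%, against 9.37% and 5.67% of genes averaging at least 5 CPM). The median log2 fold change was 0.36. The median was 0.55 in escalating replicate 1 and 0.12 in replicate 2. Spry2, a Sprouty inhibitor of receptor tyrosine kinase signals, was at 216.5 and 187 CPM in escalating libraries and at 82.0, 120 and 111 CPM in saline libraries. Both escalating libraries were well above the saline ones and above the nonescalating range of 64.9 to 149 CPM (0.95 ± 0.49). Dusp6, which acts on ERK, was at 53.1 and 34.1 CPM in escalating libraries and at 22.9, 31.3 and 26.2 CPM in saline libraries (0.70 ± 0.60).

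Dusp3 (169 and 145 CPM in escalating, 142, 118 and 139 CPM in saline), Spred1 (128 and 131 CPM in escalating, 71.1, 128 and 105 CPM in saline) and Spred2 (304 and 289 CPM in escalating, 189, 247 and 207 CPM in saline) were separated with smaller log2 fold changes, of 0.24, 0.36 and 0.47. Spred1 and Dusp3 were separated by narrow margins. Errfi1, an inhibitor of the EGF receptor, was at 109 CPM in escalating replicate 1 and 28.5 CPM in replicate 2, against 27.5, 47.8 and 43.7 CPM in saline libraries. Its log2 fold change of 0.79 ± 0.49 was -0.48 without replicate 1.

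The cascade list holds the kinases and, among others, Ras GTPases, exchange factors and a scaffold. Of its 37 genes, 28 had a positive fold change (75.7%, against 54.4% of genes averaging at least 5 CPM). Separated higher were 5 and lower 2 (13.5% and 5.41%, against 9.37% and 5.67% of those genes). The list median was 0.18. Without escalating replicate 1 the median was -0.02. Nras, a Ras GTPase at the head of the cascade, was at 107 and 127 CPM in escalating libraries and at 95.8, 78.0 and 103 CPM in saline libraries. The kinases Mapk8, or JNK1 (77.5 and 85.3 CPM in escalating, 61.9, 73.5 and 51.9 CPM in saline) and Mapk14, a stress-activated kinase (150 and 114 CPM in escalating, 110.5, 92.1 and 90.0 CPM in saline) were separated higher as well. Rps6ka2 and Rasgrp2 completed the 5, with log2 fold changes of 0.44 and 0.27. The 2 members separated lower were also kinase genes, at low levels: Mapkapk2 at 1.62 and 3.97 CPM in escalating libraries and 6.24, 9.03 and 6.46 CPM in saline libraries, and Mknk2 at 6.99 and 6.14 CPM against 15.8, 15.3 and 8.17 CPM. The scaffold Ksr1 overlapped, with a log2 fold change of 0.82 ± 0.46.

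Ordered by p rather than by list, the 10 genes separated higher with the lowest p, among those averaging at least 5 CPM, began with Preb. Preb encodes a guanine exchange factor that assembles the COPII coats of vesicles leaving the endoplasmic reticulum. It was at 462 and 53.6 CPM in escalating libraries and at 37.0, 25.95 and 23.8 CPM in saline libraries, so most of its log2 fold change of 3.16 ± 0.56 came from replicate 1. Trp53, the tumour suppressor, showed the reverse, at 82.5 and 243 CPM in escalating libraries and at 43.4, 57.0 and 56.6 CPM in saline libraries (1.64 ± 0.40). It was above all 21 other purified libraries. Ntan1, an amidase that acts on protein N termini, at 66.1 and 11.7 CPM in escalating libraries and 10.1, 11.7 and 9.43 CPM in saline libraries, was high in replicate 1 alone, and replicate 2 was level with saline replicate 3 to the precision printed.

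In Usp27x, Dhrs1 and Zcchc3, of the same 10 genes, both escalating libraries were well above the highest saline library. Usp27x, a ubiquitin protease gene of the X chromosome, was at 70.7 and 124 CPM in escalating libraries and at 30.7, 27.5 and 37.2 CPM in saline libraries (1.61 ± 0.43). The nonescalating libraries, at 14.4 to 29.3 CPM, overlapped the saline range. Dhrs1, a short-chain dehydrogenase, was at 97.0 and 152 CPM in escalating libraries and at 37.9, 44.3 and 46.9 CPM in saline libraries (1.53 ± 0.39). Both Usp27x and Dhrs1 were above all 21 other purified libraries. Zcchc3, which takes part in sensing of nucleic acids, was at 37.5 and 38.1 CPM in escalating libraries and at 11.98, 19.2 and 8.53 CPM in saline libraries, while the nonescalating libraries lay between, at 25.4 to 29.6 CPM.

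Fancg, a subunit of the Fanconi anaemia DNA repair complex, was at 14.4 and 12.3 CPM in escalating libraries and at 2.11, 2.51 and 1.26 CPM in saline libraries (2.76 ± 0.79), with nonescalating libraries between at 3.53 to 8.29 CPM. Atg2a, a lipid transfer protein of autophagy, was at 149 and 106 CPM in escalating libraries and at 57.2, 63.4 and 79.3 CPM in saline libraries (0.94 ± 0.28). Tubgcp5, a subunit of the complex that starts microtubules, was at 83.9 and 34.5 CPM in escalating libraries and at 19.9, 23.8 and 24.5 CPM in saline libraries (1.38 ± 0.43). Per2 closed this group of 10.

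In the lower direction Gab2, an adaptor of receptor tyrosine kinases, led by p. It was at 12.7 and 22.5 CPM in escalating libraries and at 77.2, 45.4 and 36.4 CPM in saline libraries (-1.59 ± 0.42). Cep85, a centrosomal protein, was at 6.54 and 4.92 CPM in escalating libraries and at 34.8, 11.5 and 24.8 CPM in saline libraries (-2.05 ± 0.58). For both genes the escalating values lay below all 21 other purified libraries. Trpv2, a cation channel, was at 1.42 and 0.74 CPM in escalating libraries and at 34.0, 10.4 and 10.4 CPM in saline libraries, a log2 fold change of -4.07 ± 1.09. The nonescalating libraries ran from 1.39 to 20.5 CPM and so overlapped the escalating ones.

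Tapbp, the tapasin of antigen presentation, was at 4.79 and 10 CPM in escalating libraries and at 33.1, 19.7 and 21.6 CPM in saline libraries (-1.74 ± 0.62). Tapbp shares 3422 bases with Zbtb22 on the same strand, and reads there may be lost or misplaced. Shmt2, a mitochondrial enzyme of serine and glycine metabolism, was at 10.2 and 3.76 CPM in escalating libraries and at 26.6, 26.8 and 18.7 CPM in saline libraries (-1.79 ± 0.61). Fam101b, an actin regulator, was at 3.17 and 4.55 CPM in escalating libraries and at 21.9, 14.2 and 16.5 CPM in saline libraries (-2.18 ± 0.70). In the remaining genes of this group the saline values lay close together for Zfp512, a zinc-finger protein (15.1 and 19.3 CPM in escalating, 36.6, 36.9 and 34.7 CPM in saline) and Ankrd28, a subunit of protein phosphatase 6 (22.9 and 32.7 CPM in escalating, 52.2, 47.1 and 49.9 CPM in saline). Tmeff1, a membrane protein with follistatin-like domains, was at 17.2 and 27.5 CPM in escalating libraries and at 51.0, 40.0 and 40.2 CPM in saline libraries, and Tbc1d22a, which has a Rab GTPase-activating domain, at 5.76 and 5.19 CPM against 9.62, 15.3 and 26.9 CPM.

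**Figure D3:**
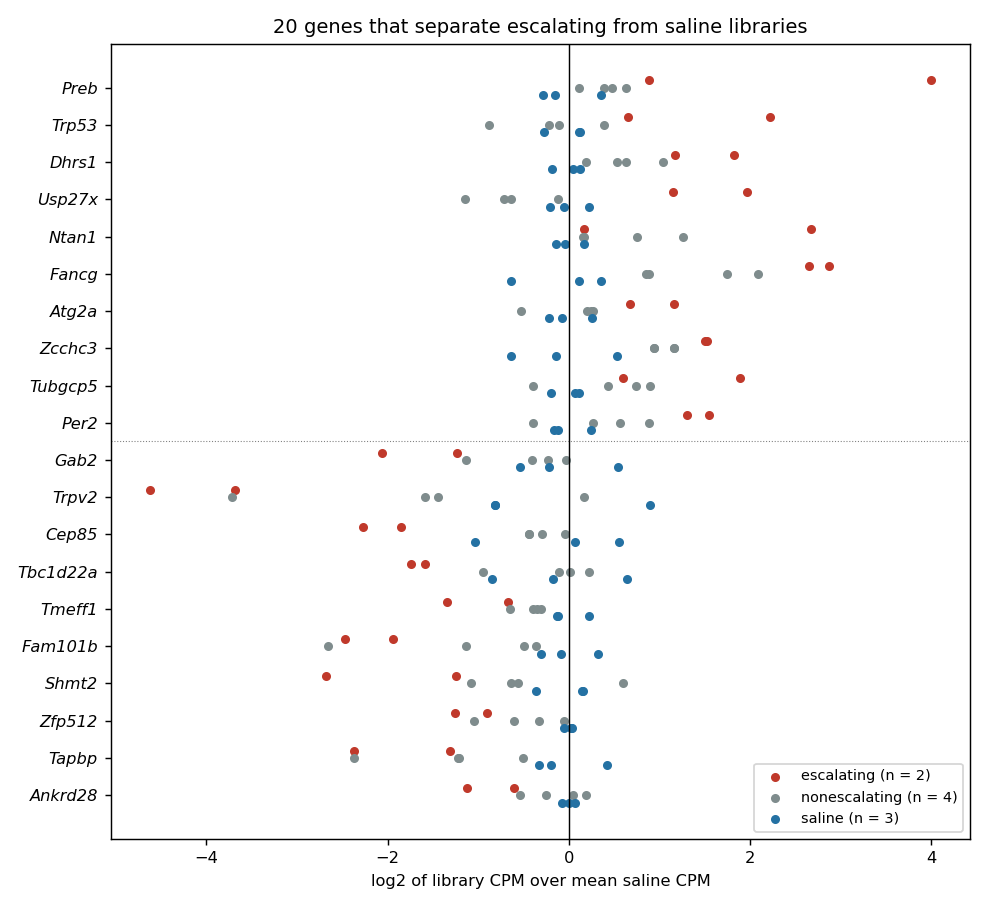
Log2 of each library's CPM over the mean saline CPM (linear axis) for the 10 genes separated higher (top) and the 10 separated lower (bottom) with the lowest p; points are 2 escalating, 4 nonescalating and 3 saline libraries. Preb, Trp53 and Ntan1 have widely spaced escalating points, while Zcchc3 and Fancg have close ones.

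Lists of neuronal and metabolic genes mostly had positive medians that were larger in escalating replicate 1. List counts from here on stand beside 8.05% of all genes separated higher, 7.13% lower and 48% positive. Among genes averaging at least 5 CPM the shares were 9.37%, 5.67% and 54.4%. Nuclear-encoded genes of oxidative phosphorylation, the subunits of the respiratory chain and ATP synthase, had 65 of 76 members with a positive fold change. Of them 18 were separated higher and 1 lower (23.7% and 1.32%). The list median log2 fold change was 0.34, with 0.51 in replicate 1 and 0.18 in replicate 2. Uqcrh of complex III was at 107 and 57.9 CPM in escalating libraries and at 47.4, 53.7 and 47.1 CPM in saline libraries (0.74 ± 0.39). Ndufc1 of complex I was at 61.8 and 29.4 CPM in escalating libraries and at 18.7, 26.3 and 16.2 CPM in saline libraries (1.16 ± 0.64). Ndufb4 overlapped, with 20 CPM in replicate 1 and 7.20 CPM in replicate 2, against 6.27 to 7.68 CPM in saline libraries.

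Actin and spine regulators had 36 of 43 members positive, 7 separated higher and 1 lower (16.3% and 2.33%), with a median of 0.23. Cfl2, a cofilin that severs actin filaments, was at 55.2 and 27.7 CPM in escalating libraries and at 13.4, 19.9 and 21.5 CPM in saline libraries (1.18 ± 0.44). It was above the nonescalating range of 12.1 to 24.5 CPM too. Genes of vesicle release had 5 of 34 separated higher and 2 lower (14.7% and 5.88%), with a median of 0.19. Rab3b, a small GTPase of synaptic vesicles, was at 98.2 and 62.1 CPM in escalating libraries and at 26.4, 46.1 and 40.6 CPM in saline libraries (1.09 ± 0.60). Unc13a, which primes vesicles for release, was lower, at 292 and 233 CPM in escalating libraries and 339, 546 and 530 CPM in saline libraries (-0.85 ± 0.55). Stx1a of the fusion machinery was at 10.4 and 15.2 CPM in escalating libraries and at 13.5, 32.0 and 38.5 CPM in saline libraries, an overlap (-1.13 ± 0.49).

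Potassium channel genes had 30 of 41 members positive (73.2%), 5 separated higher and 2 lower (12.2% and 4.88%). These separated shares were near those of genes averaging at least 5 CPM (9.37% and 5.67%). The list median was 0.36. That median was 0.54 in replicate 1 and 0.01 in replicate 2. Kcna1 was at 508 and 400.3 CPM in escalating libraries and at 226, 377 and 270.4 CPM in saline libraries (0.64 ± 0.51), and Kcnj9, a subunit of G-protein gated channels, at 12.8 and 16.5 CPM against 22.5, 21.7 and 34.6 CPM (-0.84 ± 0.68). Glutamate receptors and scaffolds had a median of 0.21, from 0.32 in replicate 1 and -0.24 in replicate 2. Of the 42 members, 1 was separated higher and 2 lower (2.38% and 4.76%). Grin3a, an NMDA receptor subunit that lowers calcium entry, was at 1.49 and 2.96 CPM in escalating libraries and at 12.5, 10.4 and 6.10 CPM in saline libraries (-2.11 ± 0.90). Grin3a holds Ppp3r2 within its span on the same strand. Dlg1, a scaffold, was the member separated higher, at 112.5 and 126.5 CPM in escalating libraries and 86.2, 112 and 96.0 CPM in saline libraries. No GABA receptor gene of 14 was separated.

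For cyclic AMP and DARPP-32 signalling the median was 0.18, with 3 of 43 separated higher and 1 lower (6.98% and 2.33%). Arpp19, a phosphatase inhibitor that protein kinase A modifies, was at 633 and 611 CPM in escalating libraries and at 303, 417 and 364 CPM in saline libraries (0.78 ± 0.41). Both were above the nonescalating range of 278 to 522 CPM. Crem, which encodes activators and repressors at cyclic AMP elements, was separated lower, at 1.88 and 5.19 CPM in escalating libraries and 9.62, 13.04 and 8.08 CPM in saline libraries (-1.53 ± 0.77). Pde4d, which breaks down cyclic AMP, overlapped at 126 and 92.8 CPM in escalating libraries and 64.2, 101 and 60.6 CPM in saline libraries.

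Enzymes of histone and DNA methylation and acetylation showed no shared direction, with 23 of 48 positive, 2 separated higher, 4 lower and a median of -0.02. Prmt6, an arginine methyltransferase, was separated higher at 11.8 and 6.61 CPM in escalating libraries and 2.79, 2.88 and 6.19 CPM in saline libraries. Dnmt1, which maintains DNA methylation, overlapped at 78.7 and 56.8 CPM in escalating libraries and 78.4, 101 and 102 CPM in saline libraries. Glucocorticoid-responsive genes, which include Per1 and Dusp1, were 14 of 28 positive with 1 separated each way. Heat shock proteins and chaperonins had 1 of 38 separated higher and none lower, with a median of 0.06. Opioid, peptide and cannabinoid genes had a median of 0.06 with 2 of 24 separated higher. The mu opioid receptor gene Oprm1 was among them, at 56.8 and 43.7 CPM in escalating libraries and 31.0, 28.6 and 39.9 CPM in saline libraries (0.60 ± 0.50). Oprm1 overlaps Ipcef1 on the other strand over much of its span, and the strand setting of the counting is not given.

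**Figure D4:**
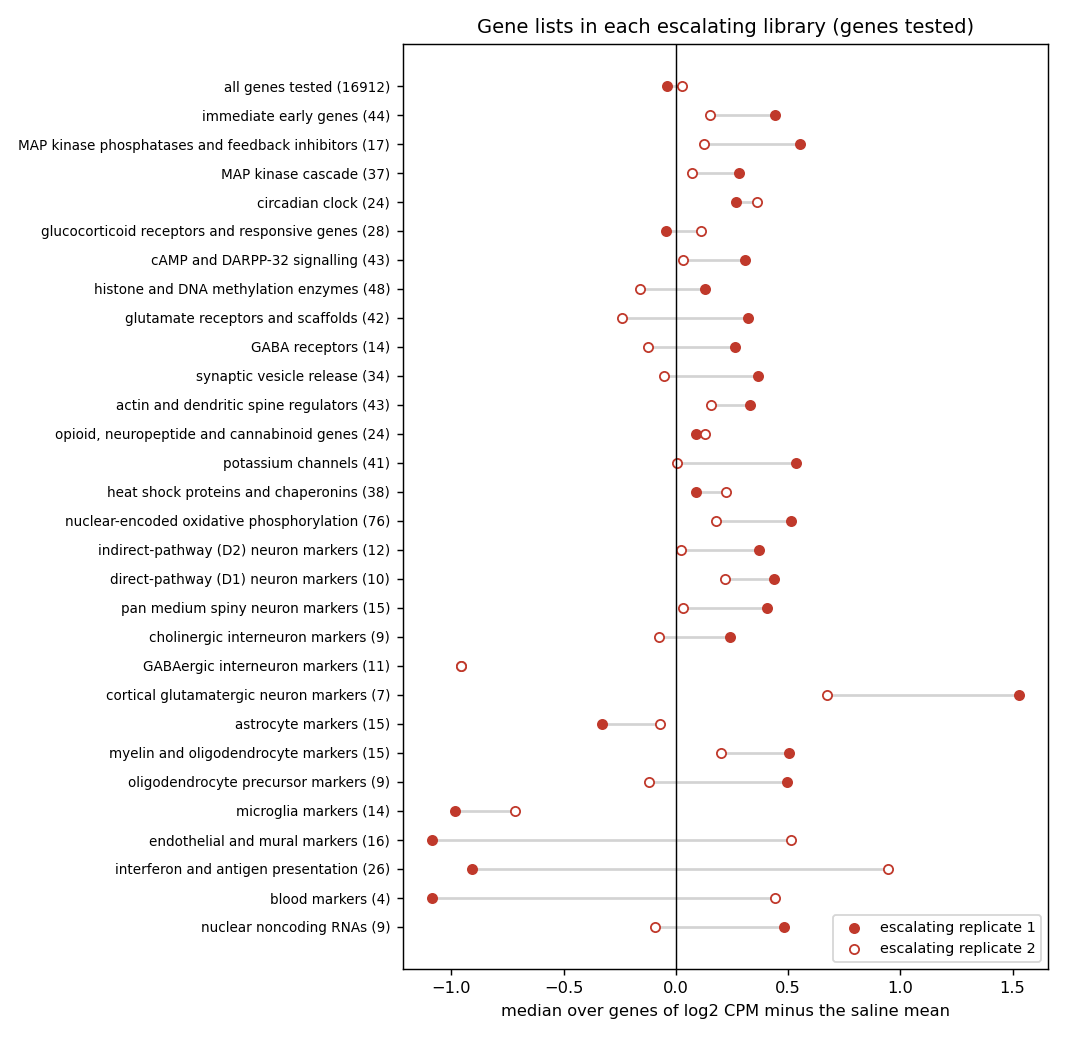
Median over the genes of each list of log2 CPM minus the saline mean, on a linear axis, for escalating replicate 1 (filled) and replicate 2 (open). Clock genes lie at 0.27 and 0.36, most neuronal lists lie further right in replicate 1, and endothelial and interferon lists have opposite signs in the 2 libraries.

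The label of the purified cells was checked against their markers. Drd2 was at 8871 and 2484 CPM in escalating libraries and at 2973, 4631 and 2547 CPM in saline libraries. Replicate 1 was highest of the 5 and replicate 2 lowest, with a log2 fold change of 0.75 ± 0.67 that was -0.45 without replicate 1. Penk, the enkephalin precursor, was at 6254 and 3932 CPM in escalating libraries and at 3147, 4962 and 3661 CPM in saline libraries, and the adenosine receptor gene Adora2a at 2162 and 1802 CPM against 1278, 1860 and 1234 CPM. None of 12 indirect-pathway markers was separated, and their summed level was 20510 and 10510 CPM in escalating libraries and 9347, 14320 and 9508 CPM in saline libraries. Drd1, the receptor of the direct pathway, was at 32.0 and 34.3 CPM in escalating libraries and at 16.5, 14.04 and 42.6 CPM in saline libraries, an overlap. All 5 libraries thus held Drd2, Penk and Adora2a.

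Among markers of other cells, the endothelial, mural and interferon sums spread widely within each group, while the microglial sums of the escalating libraries were close to each other. For endothelial and mural cells the 16 markers summed to 1132 and 2714 CPM in escalating libraries and 5092, 383 and 3368 CPM in saline libraries, and 15 of the 16 had a negative fold change with none separated. Cdh5 was at 24.7 and 75.9 CPM in escalating libraries and at 214, 12.4 and 126 CPM in saline libraries, Pecam1 at 17.2 and 78.0 CPM against 164, 6.64 and 108 CPM. Acta2 of smooth muscle was at 0.13 and 13.1 CPM in escalating libraries and at 124, 0.13 and 51.4 CPM in saline libraries. Saline replicate 3 was the lowest of the 5 in the summed level of these markers, with escalating replicate 1 next.

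Interferon and antigen genes summed to 292 and 1408 CPM in escalating libraries and 1743, 129 and 650 CPM in saline libraries. Tapbp, described above, belongs to this list, of which 1 of 26 was separated higher and 1 lower. Microglia markers summed to 27.1 and 29.7 CPM in escalating libraries and 62.3, 17.2 and 36.9 CPM in saline libraries, with 12 of 14 fold changes negative. Tmem119, C1qb, Trem2 and Tyrobp were at 0 in both escalating libraries. Their saline levels are not reported here, and the whole list is low in every library. The microglial Cd68 was separated higher, at 20.1 and 18.7 CPM in escalating libraries and 10.1, 12.4 and 13.6 CPM in saline libraries.

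GABAergic interneuron markers were negative in 9 of 11, with a median of -0.69. Separated lower were 4 and higher none (36.4% and 0%, against 7.13% and 8.05% of all genes). Their sum was 108 and 66.3 CPM in escalating libraries and 117, 91.8 and 126 CPM in saline libraries. Pvalb, Calb2, Htr3a and Pthlh were at 0 in both escalating libraries. The saline levels of these genes are not reported here, so the zeros do not show a difference between the groups. Kit was at 0.32 and 3.55 CPM in escalating libraries and at 13.1, 15.3 and 11.5 CPM in saline libraries, separated lower (-2.77 ± 1.24), with the nonescalating libraries at 0 to 4.15 CPM. Nos1 overlapped at 29.4 and 38.4 CPM in escalating libraries and 69.4, 37.7 and 56.8 CPM in saline libraries. Cck, of the same list, had a positive fold change and overlapped too (0.92 ± 0.86). It was at 27.5 and 6.99 CPM in escalating libraries and 2.11, 11.4 and 13.8 CPM in saline libraries.

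Cholinergic interneurons, in which Drd2 is also active, gave 2 of 9 markers separated higher and 2 lower. That is 22.2% each way, against 8.05% and 7.13% of all genes. Chat was at 21.4 and 8.47 CPM in escalating libraries and at 18.1, 6.39 and 6.10 CPM in saline libraries, and Slc5a7, the choline transporter, at 19.6 and 14.1 CPM against 10.5, 10.2 and 9.25 CPM. Slc18a3, the vesicular transporter of the same cells, was the other way, at 1.30 and 0.69 CPM in escalating libraries and 4.39, 14.2 and 9.25 CPM in saline libraries. Slc18a3 lies within Chat on the same strand, so reads of the pair could be confused. Myelin markers summed to 513 and 334 CPM in escalating libraries and 318.5, 267 and 319 CPM in saline libraries. Of these 15 markers 10 had a positive and 5 a negative fold change, with 2 separated higher and 0 lower (13.3% and 0%). Mobp, a myelin protein, was separated higher at 109.5 and 39.2 CPM in escalating libraries and 27.7, 35.0 and 34.7 CPM in saline libraries. Trf, of the same list, had a negative fold change and overlapped (-0.87 ± 0.72). It was at 8.42 and 11.3 CPM in escalating libraries and 28.9, 16.7 and 8.44 CPM in saline libraries. Cnp overlapped as well (0.52 ± 0.48). Astrocyte sums overlapped, at 1087 and 817 CPM in escalating libraries and 1109, 810 and 906 CPM in saline libraries. The part of these cell types in the separated genes above was not tested.

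**Figure D5:**
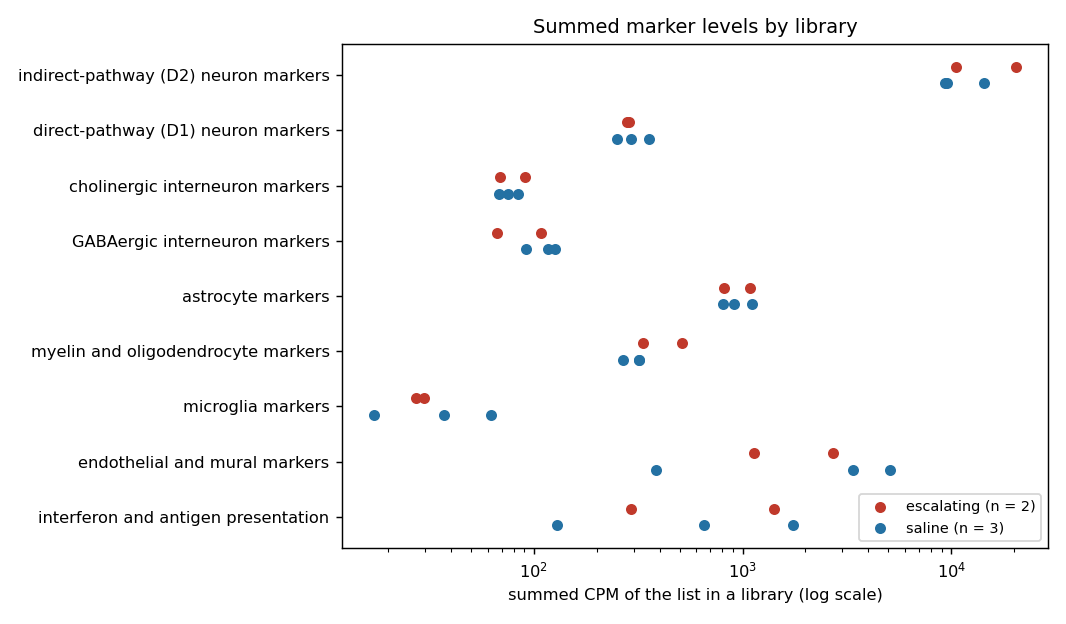
Summed CPM of cell type marker lists in each library on a log axis, for 2 escalating (upper row of each pair) and 3 saline libraries (lower row). Indirect-pathway markers lie at 20510 and 10510 CPM in the escalating libraries and endothelial sums spread from 383 to 5092 CPM.

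Against the 4 nonescalating libraries, which share the cocaine but not the escalation of intake, edgeR called no gene (0% of 16912), and 558 had an unadjusted p under 0.05 (3.3%). The lowest adjusted p was 0.0936, for Preb, Usp27x and Gm7854, followed by Trp53 and Ttc27 at 0.299. The log2 difference, escalating minus nonescalating, was 2.74 ± 0.50 for Preb, 2.22 ± 0.40 for Usp27x and 1.77 ± 0.37 for Trp53. It was 1.02 ± 0.42 for Per2, 1.13 ± 0.39 for Dusp1 and 0.92 ± 0.57 for Egr1. For Arc it was 1.59 ± 0.84. Ttc27 and Gm7854, named because of these p-values, each rested on escalating replicate 2. Ttc27 was at 4.79 and 566 CPM and Gm7854 at 0.19 and 264 CPM in the escalating libraries, against 16.6 to 24.7 CPM and 0 to 0.34 CPM in saline libraries.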

How the data were processed

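The deposited values were whole-number counts of reads per gene symbol, 1 table per library, not normalized. Per the submitters' processing notes the authors used STAR 2.0.0e for alignment, the genome build mm10 and HTSeq for counting. No source used here gives the annotation, strand setting, library kit or filters. Tables with 32531 and 32657 genes were joined by symbol to 31980 genes. The 5 libraries compared share the larger annotation and kept 99.83% to 99.94% of their gene counts. Groups and replicate numbers came from titles. The titles mark these libraries as copies of lower numbers, a mark whose meaning is not given. No pair within the escalating or the saline group was identical. The withdrawal libraries were not compared in this way. Some of them bear the same group and replicate number in their titles, and whether these hold the same material is not given. The fit counts each as a separate library, so its SE and p-values rest on that assumption.

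Counts of the 23 purified libraries were fitted in R 4.3.3 with edgeR 4.0.16 (filterByExpr, TMM, quasi-likelihood F test, terms for group and library set, 17 residual degrees of freedom), with Benjamini-Hochberg adjustment over 16912 genes. The set, A or B, was assigned from the library numbers in the titles, and all 9 libraries without withdrawal are in set A. Set A also holds 1 saline withdrawal library, a replicate 2, whose number lies below those of set B. Its table lists 32531 genes, as in set B, while the other set A tables list 32657. The effect of this assignment was not tested. Alternatives were DESeq2 1.42.0, limma 3.58.1 voom with library weights, RLE factors, no low-count filter, fewer libraries, the share of reads outside genes as a covariate, a replicate block and leaving out each library. Thinning the counts to the shallowest library was added after seeing the data.

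Named are Per2, Dusp1 and Egr1, 5 cell type checks, the 10 separated genes with the lowest p per direction among those averaging at least 5 CPM with a symbol other than a predicted-gene name, and members with the lowest p of the lists described; some of these are not reported here. Separated members of the clock, early gene, phosphatase and cascade lists, the remaining clock and early genes, Gm7854, Ttc27 and genes called by another setting were chosen after their values were seen. The 29 lists and the members were chosen with earlier results of these data known. The fit was tested on simulated data.

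Coordinates are from GENCODE M21 (GRCm38), and promoters from RefSeq. Of 126 members of the 4 lists searched for motifs, 102 had a promoter entry.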

Additional observations from a re-analysis of the deposited data

Results flagged for a closer look

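In 5 of 93 genes checked, 1 of the 4 nonescalating libraries stood apart from the other 3 by Dixon's 95% criterion, which sets the gap against the range. Chance alone marks about 1 in 20 such groups. Nonescalating replicate 4 was the high library for 3 early genes. It had 79.7 CPM of Arc against 15.4 to 24.4 CPM in the others, 22.97 CPM of Npas4 against 0.57 to 2.40 CPM, and 1.70 CPM of Fos against 0 CPM. Atg2a was at 46.2 CPM in nonescalating replicate 2, against 76.7 to 80.0 CPM in the others. Mapk14 was at 136.5 CPM in nonescalating replicate 1, against 95.1 to 98.9 CPM. The causes were not tested.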

How the results depend on the processing

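Genes called higher numbered 0 with edgeR and 2 each without the low-count filter, with the share of reads outside genes as a covariate, and with DESeq2, and 0 to 2 when 1 library was left out. Genes called lower numbered 4 with DESeq2 (against 0), and 0 to 1 when 1 library was left out. Preb was called without the filter (adjusted p = 0.0406), with the covariate (0.0370), with DESeq2 (0.000876) and with edgeR without escalating replicate 2 (0.000262); the other edgeR settings left it uncalled. DESeq2 also called Gm7854 higher and Trpv2, AK087806, H2-M10.2 and Pdcd1lg2 lower, the last 3 at 0 counts in both escalating libraries. Without escalating replicate 1 the calls were Gm7854 and Ttc27, and without replicate 2 Preb and, lower, Pak4. The cause was not tested. Of genes averaging at least 5 CPM, 1013 were separated higher (9.37%) and 613 lower (5.67%), against 8.05% and 7.13% of all genes tested; the cause was not tested. Leaving out 1 library gave 1906 to 4723 separated higher and 1858 to 4108 lower, as the criterion then compares fewer libraries. With counts thinned to the shallowest library 1315 were separated higher and 1171 lower. The escalating and saline libraries share only replicate number 1, whose residuals correlated at -0.309. That is 1 pair of libraries, which cannot show whether the number marks something shared. A replicate block gave 0 calls and 347 genes at an unadjusted p under 0.05.

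Some log2 fold changes of uncalled genes changed sign. Leaving out 1 library at a time, they ran from -0.45 to 1.39 for Drd2, -0.27 to 1.26 for Chat, -0.48 to 1.46 for Errfi1, -0.23 to 0.69 for Dbp, -0.32 to 0.48 for Npas2 and -0.25 to 0.53 for Egr3. The lowest value came without escalating replicate 1 for Drd2, Chat, Errfi1, Npas2 and Egr3, and without escalating replicate 2 for Dbp. They ran from -0.30 to 0.12 for Clock and from -0.48 to 0.27 for Nr1d1. The replicate block gave -0.033 for Rasgrp2 and 0.027 for Nr1d1, the covariate -0.20 for Npas2 and -0.062 for Egr3, and limma voom 0.006 for Clock. List medians stayed above 0 in all 13 alternatives for the clock (0.21 to 0.38), early gene (0.06 to 0.36), phosphatase (0.11 to 0.58), actin (0.09 to 0.38) and oxidative phosphorylation lists (0.16 to 0.54). So did those of the cyclic AMP list (0.009 to 0.377) and the direct-pathway marker list (0.001 to 0.486). The medians did not stay above 0 for the cascade, potassium channel, glutamate, GABA, vesicle or D2 marker lists.

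Counts limit genes of a few CPM, and 2 escalating libraries limit every comparison.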
